A study of Mus musculus with 50 samples.

Results

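Antibodies that block the Notch receptors and antibodies that block the Jagged ligands were compared in the adult mouse thyroid 15 hours after dosing. The comparison holds 5 thyroids from mice given antibodies against Notch1 and Notch2 (aN1aN2) and 5 from mice given antibodies against Jag1 and Jag2 (aJ1aJ2), 10 of the 50 libraries of the study, chosen by their sample titles. All were male C57BL/6 mice, 10 to 12 weeks old per the series text and 10 to 14 weeks old per the treatment protocol. Each received 1 intraperitoneal dose in PBS, either anti-Notch1 at 5 mg/kg with anti-Notch2 at 10 mg/kg, or anti-Jag1 and anti-Jag2 at 20 mg/kg each. As isotype control, 5 further thyroids were from mice given 40 mg/kg of an antibody against ragweed (RW) and killed at 15 hours. Another 15 thyroids taken at 5 days after RW, aJ1aJ2 or aN1aN2 (5 each) serve as a second time. Beyond the numbers of the thyroids, no label says that those of a group were from separate mice. The doses of the antibody pairs differ, and the receptor pair leaves Notch3 and Notch4 untargeted, as the ligand pair does Dll1 and Dll4. The series text mentions thyroid hormone injections in part of the study from day 2 on, that is, after 15 hours; no label says which mice at 5 days, if any, received them.

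Notch receptors sit in the membrane of one cell and are switched on by ligands of the Jagged or Delta-like families on a neighbouring cell. Ligand binding lets proteases release the intracellular part of the receptor, which enters the nucleus, joins the DNA-binding protein Rbpj and switches on genes such as Hes1, Hey1, Heyl and Nrarp. In blood vessels Dll4 is the main ligand of endothelial cells, whereas Jag1 and Notch3 are known for the contact between endothelial cells and the mural cells, pericytes and smooth muscle cells, that wrap the vessel. The thyroid follicle is enclosed by a dense capillary net, so a bulk library of this gland carries the RNA of follicle cells, endothelium and mural cells together.

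Few genes were called between receptor and ligand blockade, and the called genes fell into distinct groups. Of 18513 genes tested, 24 (0.13%) passed an adjusted p of 0.05 in edgeR's quasi-likelihood test, with 15 higher and 9 lower in aN1aN2 than in aJ1aJ2. Before adjustment, edgeR's p was under 0.05 for 2321 genes. DESeq2 called 557, so a low count of calls does not show that the antibody pairs acted alike. The DESeq2 calls included all 6 genes of a cartilage list, whose counts were highest in aN1aN2 replicates 2 and 5. They are therefore not all to be read as effects of the antibodies. The vascular genes among the 24 were Rgs5, a pericyte gene that was higher in aN1aN2, and Dll4, which was lower. The other 22 were 5 genes of secreted liver proteins, all lower in aN1aN2; 2 mitochondrially encoded messages and 7 nuclear copies of such messages, all higher; 5 processed copies of nuclear genes; and Serpinh1, Hspa8 and Rpl7, all higher. The readout genes of Notch signalling were not called, and interferon-stimulated genes were above RW in both antibody groups. With 0.13% of all genes called between the antibody pairs, a gene list with 0 calls in this comparison is not set apart from genes at large.

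The deposited values fall into 2 blocks of libraries, told apart only by the factor between counts and FPKM, and no source used here says what the blocks are. The aN1aN2 libraries at 15 hours share a block with all 5-day libraries, and the aJ1aJ2 and RW libraries at 15 hours are in the other, so block and receptor blockade cannot be told apart at 15 hours. RW libraries exist in both blocks, at 15 hours and at 5 days. Between these RW groups 1828 of 19337 genes (9.45%) were called, a difference in which time and block cannot be told apart. Of the 24 genes, 21 were also called between the RW groups and in the same direction; the exceptions were Rgs5, Dll4 and Gm2962. Replicate 3 of RW at 5 days was hardly a thyroid library, with Tg at 0.450% of counts (34.0% to 40.3% in the other 4) and 13 skeletal muscle genes at 13.1% (at most 1.11%). Without it 2293 genes were called between the RW groups, again with 21 of the 24, the exceptions then being Rgs5, Dll4 and Serpinh1. With the RW groups fitted alone 305 genes were called, 11 of the 24 among them. The comparison of aJ1aJ2 with RW at 15 hours and that of aN1aN2 with aJ1aJ2 at 5 days each lie within 1 block.

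**Figure D1:**
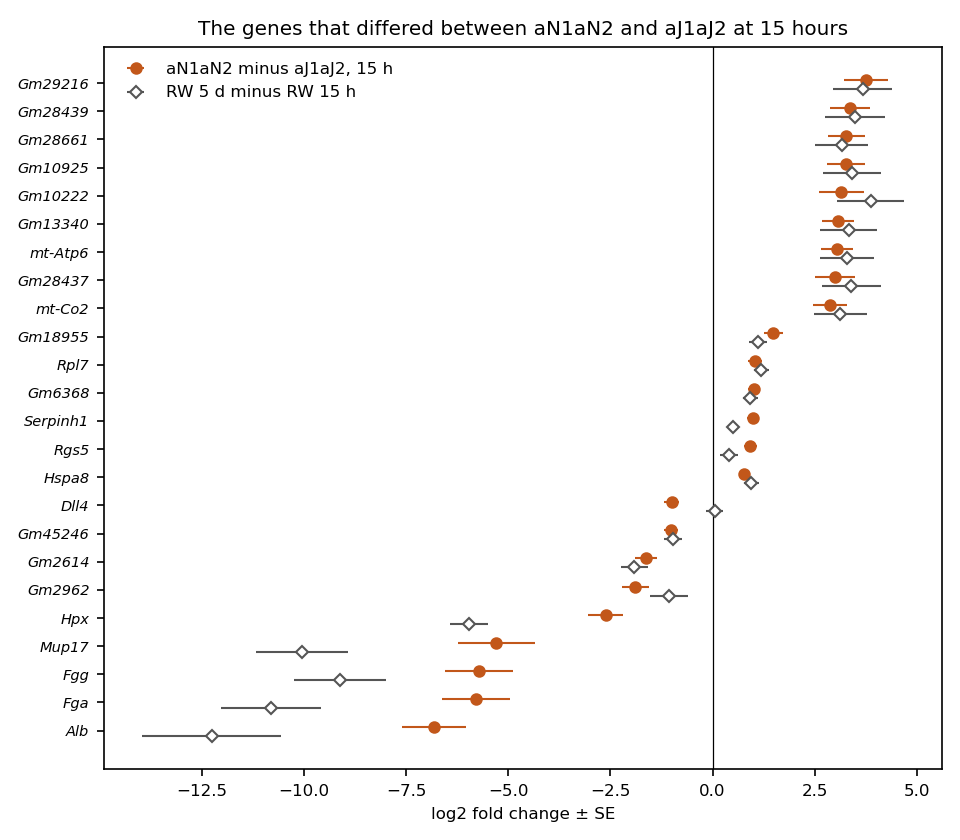
The 24 genes called between aN1aN2 and aJ1aJ2 at 15 hours, with the log2 fold change and its SE on the horizontal axis (filled circles), beside the log2 fold change of the same gene between RW at 5 days and RW at 15 hours (open diamonds). Mitochondrial messages and their copies lie near 3 in both, the liver genes lie lower in both, and Dll4 is at -1.0 against 0.05.

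Depth was alike, with 26868806 to 42883417 counts per library in aN1aN2 and 23097765 to 37599627 in aJ1aJ2. Tg, the thyroid hormone precursor, took 7.37% to 36.8% of the counts in aN1aN2 and 14.5% to 34.9% in aJ1aJ2, so each of these 10 libraries carried the labelled tissue. The dissections differed in their other tissues: 13 skeletal muscle genes together took 0.155% to 5.40% in aN1aN2 (replicates 2, 3 and 5 above 2%) and 0.389% to 5.90% in aJ1aJ2 (replicate 3 above 2%), and none of the 13 was at 0 throughout a group. Replicate 3 of aJ1aJ2 stood apart from all others on the second principal component. Replicates 2 and 5 of aN1aN2 also held the most counts of cartilage genes, 0.0965% and 0.156% of counts, against at most 0.00421% in the other 8 libraries. Leaving out the libraries above 2% muscle keeps 2 aN1aN2, 4 aJ1aJ2 and 3 RW libraries. Of the 24 calls 7 were then kept, those of mt-Co2, mt-Atp6 and 5 copies of mitochondrial messages, and the other 17 were lost. With the muscle share as a covariate and all 15 libraries kept, 143 genes were called, all 24 among them. In calls lost under the limit, the smaller number of libraries and the muscle content cannot be told apart.

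Regulator of G protein signalling 5 (Rgs5, ENSMUSG00000026678) dampens G protein signalling and is a standard marker of pericytes. In counts-per-million values (CPM), it was 192, 238, 236, 209 and 251 in the aN1aN2 libraries and 103, 124, 155, 117 and 93.0 in the aJ1aJ2 libraries. RW at 15 hours had 196, 295, 269, 234 and 288 CPM. The aJ1aJ2 group was the low one: all 5 of its libraries lay below every aN1aN2 and every RW library, while aN1aN2 and RW overlapped. The mean was 225 ± 24.1 CPM in aN1aN2 (SD, n = 5) and 118 ± 24.0 in aJ1aJ2, a log2 fold change of 0.92 (SE 0.16, edgeR adjusted p = 0.0403). Against RW the log2 fold change was -1.14 in aJ1aJ2 (SE 0.16, adjusted p = 0.00683), within 1 block, and -0.22 in aN1aN2 (SE 0.16, adjusted p = 0.568). RW at 5 days and at 15 hours did not pass the test (0.40, adjusted p = 0.287).

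At 5 days the order of the groups was the opposite for Rgs5. The aN1aN2 libraries had 138, 85.2, 79.7, 116 and 73.8 CPM, and the aJ1aJ2 libraries 166, 179, 324, 231 and 224 CPM. At this time aN1aN2 was the low group, below every aJ1aJ2 library and every RW library (252 to 526 CPM). The log2 fold change of aN1aN2 against aJ1aJ2 at 5 days was -1.19 (SE 0.28, adjusted p = 0.592), which did not pass. The change of the difference from 15 hours to 5 days did pass, at -2.10 (SE 0.32, adjusted p = 0.00462). It was called in each of the 30 fits that left out 1 library, with values from -2.26 to -1.92. The tissue content of the 5-day libraries varied. In aJ1aJ2 replicate 3, the library with 324 CPM, Tg took 2.39% and skeletal muscle genes 8.72% of counts. In aN1aN2 replicates 1 and 4, Tg took 8.80% and 13.9%, and skeletal muscle genes 7.97% and 5.32%. The part of tissue content in the Rgs5 values at 5 days was not tested.

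The call at 15 hours was less stable than the value. Over 15 fits that each left out 1 library the log2 fold change of Rgs5 stayed between 0.83 and 1.02, and it was called in 6. The call was lost without RW replicate 3 (adjusted p = 0.0626), aJ1aJ2 replicates 1 (0.113), 2 (0.0694), 4 (0.0956) or 5 (0.0874), or aN1aN2 replicates 2 (0.104), 3 (0.0846), 4 (0.0595) or 5 (0.0691), without the libraries above 2% muscle (0.91, adjusted p = 0.111), and with aN1aN2 and aJ1aJ2 fitted alone (adjusted p = 0.0922).

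Delta-like 4 (Dll4, ENSMUSG00000027314) is the Delta family ligand of endothelial cells, whose expression is itself raised by Notch signalling in arterial endothelium. It stood at 8.41, 5.93, 8.46, 8.43 and 5.63 CPM in aN1aN2 and at 14.7, 14.8, 12.2, 13.5 and 18.6 CPM in aJ1aJ2. RW at 15 hours had 11.7, 14.1, 16.2, 18.8 and 13.8 CPM. Here aN1aN2 was the low group, below every library of both others, while aJ1aJ2 and RW overlapped throughout. The mean of 7.37 ± 1.46 CPM in aN1aN2 (SD, n = 5) against 14.8 ± 2.41 in aJ1aJ2 gave a log2 fold change of -1.0 (SE 0.18, edgeR adjusted p = 0.0446). Against RW it was -1.04 in aN1aN2 (SE 0.18, adjusted p = 0.00847) and -0.04 in aJ1aJ2 (SE 0.17, adjusted p = 1).

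RW libraries of the 2 blocks had like levels of Dll4, 15.3 ± 2.87 CPM at 5 days and 14.9 ± 2.70 at 15 hours (log2 fold change 0.05, SE 0.21, adjusted p = 0.913). By 5 days the antibody groups overlapped: aN1aN2 had 5.95 to 16.7 CPM and aJ1aJ2 10.5 to 19.6, a log2 fold change of -0.32 (SE 0.23, adjusted p = 1). The change of the difference between the times, 0.71 (SE 0.30, adjusted p = 1), did not pass. The value at 15 hours stayed between -1.08 and -0.91 over the 15 fits that each left out 1 library, but the call was kept only without RW replicate 1, RW replicate 4 or aJ1aJ2 replicate 3, with adjusted p up to 0.125 in the others. Without the libraries above 2% muscle it was -0.84 (adjusted p = 0.242), without the count filter -1.0 (adjusted p = 0.0588) and with library quality weights -0.93 (adjusted p = 0.0545). The call was also lost with the replicate block (adjusted p = 0.104) and with aN1aN2 and aJ1aJ2 fitted alone (0.166). Against RW, the call of Dll4 in aN1aN2 was kept in all 15 fits that left out 1 library and lost without the libraries above 2% muscle (-0.86, adjusted p = 0.101). The gene Gm14207 lies across from Dll4 on the other strand, and the use of strand in counting is not given in the sources used here.

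**Figure D2:**
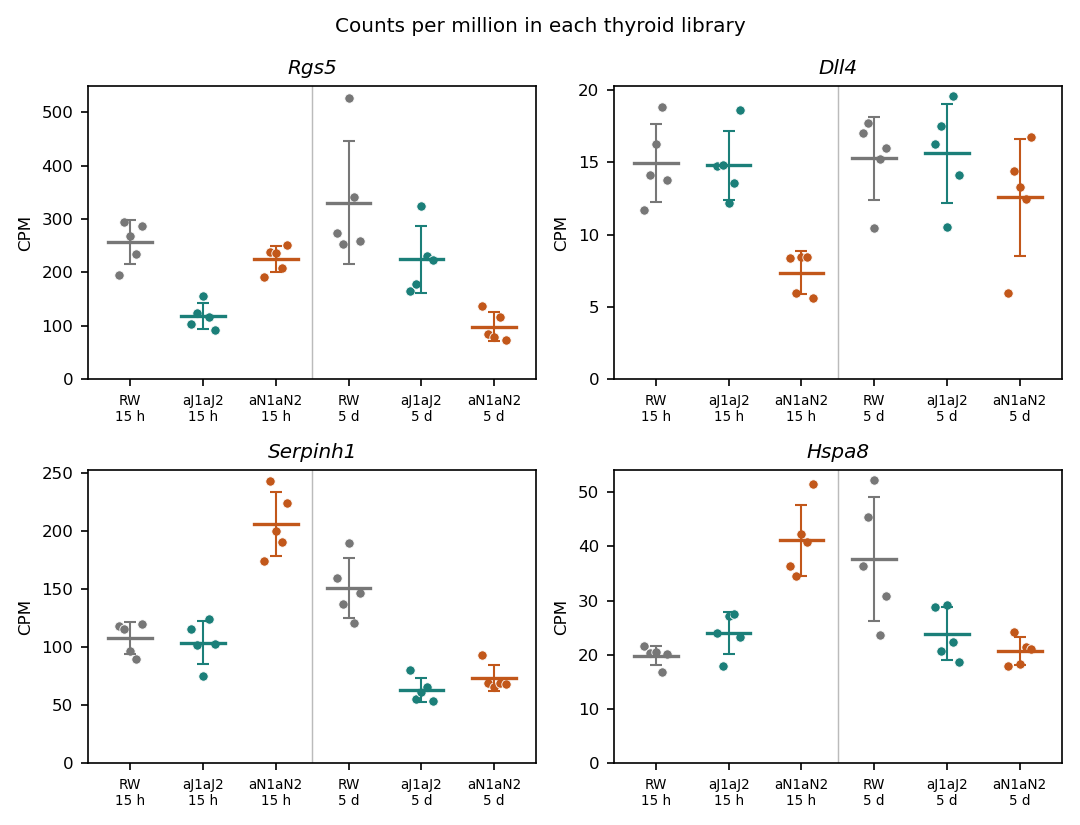
CPM of Rgs5, Dll4, Serpinh1 and Hspa8 in each library (points), with the mean (bar) and SD (whiskers) of the 5 libraries of each group, at 15 hours on the left of each panel and at 5 days on the right. Rgs5 is low in aJ1aJ2 at 15 hours and in aN1aN2 at 5 days, and Dll4 is low in aN1aN2 at 15 hours; Serpinh1 and Hspa8 are high in aN1aN2 at 15 hours and in RW at 5 days.

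The promoter windows of these vascular genes are shown because both carry the contrast between the antibody pairs. They are the bases from 250 before to 50 after the gene start in RefSeq, build GRCm38.p6, 5′ to 3′ on the gene's strand, for Rgs5 at chr1:169655251-169655550 (+ strand) and for Dll4 at chr2:119325534-119325833 (+ strand). Capitals would mark TGGGAA, the core bound by Rbpj, the DNA-binding partner of the Notch intracellular domain, searched on both strands; this core occurs in 25.6% of 32851 such windows. Neither window holds it, which says only that these letters are not in these bases.
Rgs5: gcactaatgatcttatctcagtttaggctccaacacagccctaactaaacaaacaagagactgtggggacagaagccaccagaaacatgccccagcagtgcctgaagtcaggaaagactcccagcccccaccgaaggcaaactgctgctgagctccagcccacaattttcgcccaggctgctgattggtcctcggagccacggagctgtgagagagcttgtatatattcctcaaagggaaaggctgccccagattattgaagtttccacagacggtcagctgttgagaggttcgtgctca
Dll4: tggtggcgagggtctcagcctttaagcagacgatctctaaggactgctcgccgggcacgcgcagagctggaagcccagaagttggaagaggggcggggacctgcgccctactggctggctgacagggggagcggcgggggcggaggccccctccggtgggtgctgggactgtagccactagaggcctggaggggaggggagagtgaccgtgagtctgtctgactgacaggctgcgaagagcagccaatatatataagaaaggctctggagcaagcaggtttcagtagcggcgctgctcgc

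The mural cell list holds 11 genes, of which Rgs5 alone passed the test at 15 hours, and all 11 had a positive log2 fold change in aN1aN2 against aJ1aJ2. Their median was 0.58, against 0.003 over all genes tested. Against RW, within 1 block, all 11 were negative in aJ1aJ2, with a median of -0.53. In aN1aN2 against RW 5 were positive and 6 negative, with a median of -0.08. Ndufa4l2, a respiratory chain subunit variant found in pericytes, was at 3.65, 15.2, 4.49, 3.60 and 11 CPM in aN1aN2 and 1.57, 1.65, 1.42, 2.53 and 2.19 CPM in aJ1aJ2. The groups did not overlap, but the log2 fold change of 1.99 (SE 0.39) missed the threshold at an adjusted p of 0.0766, and reads of the gene Shmt2 on the other strand could add to it. Its high libraries, aN1aN2 replicates 2 and 5, are those with the most cartilage counts, and without the libraries above 2% muscle the value of Ndufa4l2 was 0.90 (adjusted p = 0.308). DESeq2 (adjusted p = 0.000216) and the muscle covariate (0.0365) called Ndufa4l2. For Kcnj8, a potassium channel subunit of pericytes, the value was 0.38 (SE 0.16, adjusted p = 0.349). Pdgfrb, the receptor that recruits pericytes, was at 0.11 (SE 0.12, adjusted p = 0.731).

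Smooth muscle genes of the list went with particular libraries. Cnn1, calponin of contractile smooth muscle, had 21.4 and 38.6 CPM in aN1aN2 replicates 2 and 5 and at most 4.32 CPM in the other 8 libraries, and its log2 fold change turned from 2.37 (SE 0.98, adjusted p = 0.344) to -0.64 without the libraries above 2% muscle. The median of the 11 genes was then 0.08. Acta2 and Myh11 were likewise highest in aN1aN2 replicates 2 and 5, the libraries with the most cartilage counts; the part of the dissection in these values was not tested. At 5 days the median of the mural list was 0.15 and 0 of 11 members were called.

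None of the 7 Notch readouts tested was called between the antibody pairs, and their median log2 fold change was -0.32. DESeq2 and voom with library quality weights called 0 of them as well. Hes1, a transcriptional repressor of the Hes family, was at 31.5 ± 9.22 CPM in aN1aN2 (SD, n = 5) and 44.0 ± 14.4 in aJ1aJ2, with a log2 fold change of -0.48 and a 95% interval from -1.02 to 0.07. Its relatives Hey1 (-0.32, interval -0.70 to 0.07) and Hey2 (0.32, interval -0.24 to 0.88) had opposite signs, and both overlapped between the groups. Heyl, which is expressed in mural cells, had the largest difference of the list: 25.0, 14.8, 25.9, 32.1 and 14.2 CPM in aN1aN2 against 46.7, 38.3, 22.4, 47.0 and 40.4 CPM in aJ1aJ2. Only aJ1aJ2 replicate 3, the library with 5.90% muscle counts, fell within the aN1aN2 range, and the log2 fold change was -0.79 (SE 0.30, adjusted p = 0.311, interval -1.44 to -0.13). The lowest values, 14.8 and 14.2 CPM in aN1aN2 replicates 2 and 5, were also from libraries rich in muscle, at 3.51% and 4% of counts. Over the alternative settings other than leaving out 1 library, Heyl ranged from -0.885 to -0.558 and was not called.

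Nrarp, a feedback inhibitor of Notch, was at -0.43 (SE 0.40, adjusted p = 0.673) and became 0.058 without aJ1aJ2 replicate 5, which had 1.59 CPM against at most 0.785 in the other 9 libraries. Dtx1, a ubiquitin ligase of the pathway, was at -0.20 (SE 0.32, adjusted p = 0.806) and became 0.047 without aJ1aJ2 replicate 1. Hes5 was too low to be tested, at 0 to 0.0760 CPM.

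Notch3 serves both as a receptor and as a readout, since its own transcription responds to Notch in mural cells. It was at 30.9, 28.5, 34.7, 32.2 and 22.0 CPM in aN1aN2, 25.1, 22.7, 14.1, 27.6 and 18.9 CPM in aJ1aJ2 and 29.5, 46.4, 37.4, 43.1 and 39.4 CPM in RW. All aJ1aJ2 libraries lay below all RW libraries, and that difference passed within 1 block (log2 fold change -0.89, SE 0.18, adjusted p = 0.0443). This call of Notch3 was kept in 3 of the 15 fits that left out 1 library and lost without the libraries above 2% muscle (-0.64, adjusted p = 0.160). For aN1aN2 against RW it was -0.43 (SE 0.18, adjusted p = 0.288), and for aN1aN2 against aJ1aJ2 0.46 (SE 0.18, adjusted p = 0.321, interval 0.06 to 0.85). The difference between a called and an uncalled arm is therefore not itself called for Notch3.

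Among the 9 receptors and ligands only Dll4 was called, and the median was -0.16. The targeted receptors were at a log2 fold change of -0.16 for Notch1 (interval -0.80 to 0.49) and -0.13 for Notch2 (interval -0.52 to 0.26). Antibody binding itself was not measured. The targeted ligands were at -0.07 for Jag1 (interval -0.44 to 0.30) and 0.12 for Jag2 (interval -0.30 to 0.54). The endothelial receptor Notch4 was at -0.21, and the Delta family members Dll1 and Dll3 both at -0.26. None of these 7 passed the test (adjusted p from 0.396 to 0.871). Of 19 genes of receptor processing and transcription, among them Rbpj and the gamma-secretase subunits, 0 were called, with a median of -0.02; DESeq2 and voom with library quality weights each called 1, Psenen, lower in aN1aN2.

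**Figure D3:**
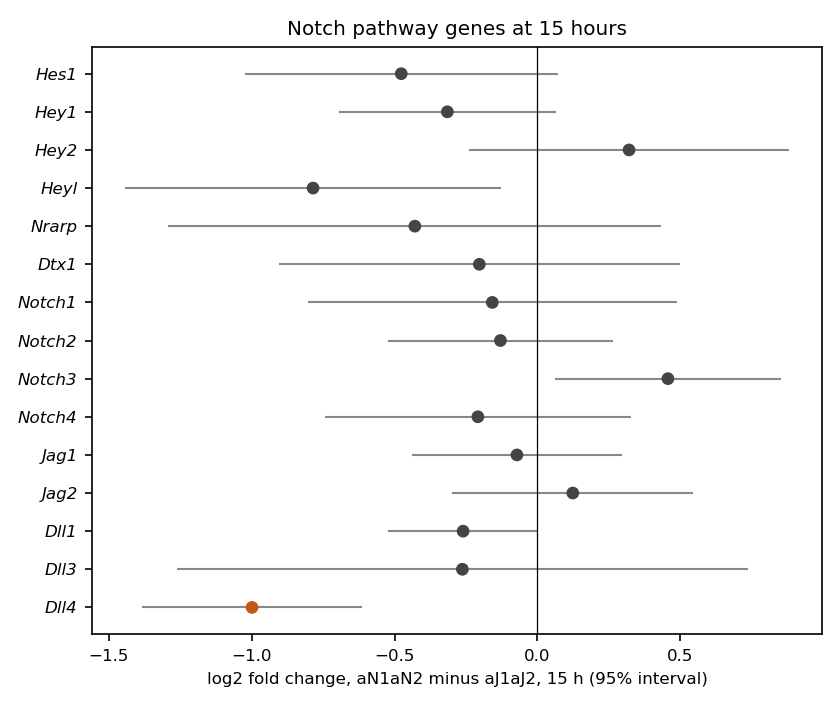
Log2 fold change of aN1aN2 against aJ1aJ2 at 15 hours for 15 Notch readouts, receptors and ligands (points) with the 95% interval from the SE and 12 residual degrees of freedom (lines, not adjusted for the number of genes). Only Dll4, the coloured point at -1.0, passed the adjusted test, and most other intervals hold 0.

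Of 10 endothelial identity genes such as Pecam1, Cdh5 and Kdr, 0 were called, where 0.13% of all genes were. Their median was -0.08. Bulk libraries cannot tell fewer cells of a type from less RNA per cell. In the list of 12 tip cell and arterial genes 0 were called. Esm1, secreted by endothelial tip cells and also by capillaries of endocrine glands, had 26.9, 8.28, 19.5, 17.2 and 14.7 CPM in aN1aN2 and 63.4, 63.4, 20.1, 59.5 and 52.5 CPM in aJ1aJ2. Again only aJ1aJ2 replicate 3 fell within the aN1aN2 range. The log2 fold change was -1.56 (SE 0.38, adjusted p = 0.128) in edgeR, and Esm1 was called by DESeq2, by voom with library quality weights, with the muscle covariate and without the libraries above 2% muscle (-1.40, adjusted p = 0.0318). Against RW, the same list had 2 members lower in aN1aN2, Esm1 (-1.65, adjusted p = 0.0462) and the arterial connexin Gja4 (-0.95, adjusted p = 0.0124), and 0 in aJ1aJ2. Over all genes tested, 1.68% were called in aN1aN2 against RW and 0.573% in aJ1aJ2 against RW. The comparison of aN1aN2 with RW also crosses the blocks of libraries. On leaving out 1 library the call of Esm1 against RW was kept in 3 and that of Gja4 in 14 of 15 fits.

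Interferon-stimulated genes were higher than in RW after both antibody pairs. These genes are switched on by interferon signalling and make antiviral effectors. Isg15, a ubiquitin-like protein, had 14.3, 17.7, 9.72, 11.8 and 14.4 CPM in aN1aN2 and 12.5, 20.6, 19.3, 7.95 and 28.7 CPM in aJ1aJ2, against 1.70 to 4.08 CPM in RW. Both antibody groups lay above every RW library and overlapped each other, with the wider spread in aJ1aJ2. Against RW the log2 fold change of Isg15 was 2.18 in aN1aN2 (SE 0.33, adjusted p = 0.00402) and 2.58 in aJ1aJ2 (SE 0.33, adjusted p = 0.00683). Between the antibody pairs it was -0.41 (SE 0.31, adjusted p = 0.613, interval -1.09 to 0.28).

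Of 34 interferon-stimulated genes tested, 20 rose in aN1aN2 against RW, where 1.68% of all genes were called, and 23 rose in aJ1aJ2 against RW, where 0.573% were. These comparisons share the RW libraries. Their medians were 1.22 and 1.42. The calls depended on the libraries more than the values did. On leaving out 1 library 9 to 23 were called higher in aN1aN2 and 9 to 25 in aJ1aJ2, with 9 and 9 without RW replicate 4, 10 and 9 without RW replicate 2, and 11 and 13 without RW replicate 3. Without the libraries above 2% muscle 2 and 0 were called, while the medians were 1.33 and 1.35 and all 34 values were positive in both. With the muscle covariate, which keeps all libraries, 24 and 26 were called. The replicate block left 14 and 10, quality weights 10 and 13, and fits of each antibody group with RW alone 24 and 5. The transcription factor Irf7 rose by 2.24 and 2.58 on the log2 scale, the RNA-binding effector Ifit1 by 2.37 and 2.54, and the deconjugating enzyme Usp18 by 1.89 and 1.99. Between aN1aN2 and aJ1aJ2, 0 of 34 were called, in edgeR as in DESeq2, and the median was -0.20, with 29 negative and 5 positive; with library quality weights the median was 0.09. Ifit1bl1 had the smallest p of the list at a log2 fold change of 5.00 (adjusted p = 0.158), a value that rests on aN1aN2 replicate 2, with 72.0 CPM against at most 3.68 in the other 9 libraries. Between RW at 5 days and RW at 15 hours 0 of the 34 were called and the median was -0.01.

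**Figure D4:**
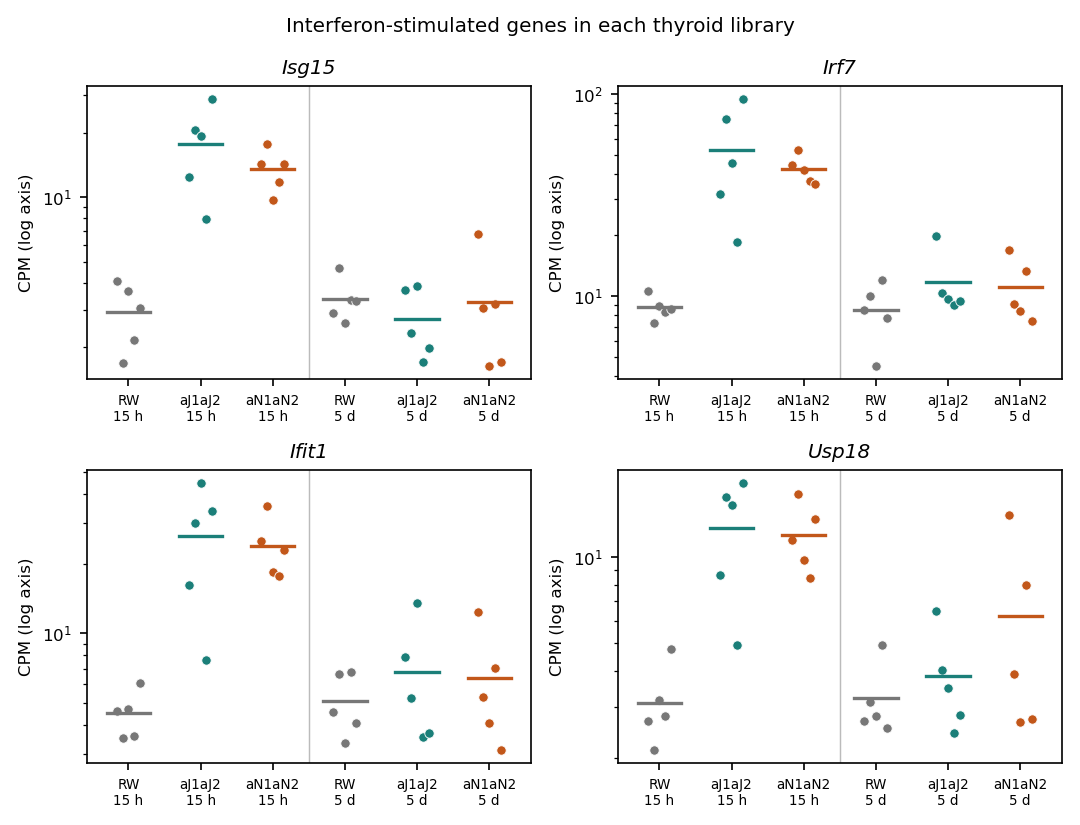
CPM on a log axis of Isg15, Irf7, Ifit1 and Usp18 in each library (points) with the mean of each group of 5 (bars). At 15 hours every antibody library of these 4 genes lies above every RW library, and aN1aN2 and aJ1aJ2 overlap.

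The Isg15 promoter is shown because its window holds the response element by which such genes are known. It covers chr4:156200769-156201068 (- strand, GRCm38.p6, RefSeq). Capitals mark the interferon response core, 2 copies of GAAA with 2 bases of any kind between them, on either strand; here 3 matches overlap in 1 run of bases.
Isg15: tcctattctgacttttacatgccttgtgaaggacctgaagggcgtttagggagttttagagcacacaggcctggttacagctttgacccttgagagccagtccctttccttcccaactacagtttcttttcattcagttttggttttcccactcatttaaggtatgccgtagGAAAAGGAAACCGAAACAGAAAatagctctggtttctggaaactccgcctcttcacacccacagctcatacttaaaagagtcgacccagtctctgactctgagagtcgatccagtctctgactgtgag
This core was found in the windows of 15 of the 24 interferon-stimulated genes that had an entry (62.5%), against 3.99% of all 27025 genes of the table. A match is a description of the letters and not evidence that a factor was bound here.

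Genes of secreted liver proteins made up 5 of the 9 genes that were lower in aN1aN2. For Alb, serum albumin, the counts summed to 8 over the aN1aN2 group, 954 over aJ1aJ2 and 13918 over RW at 15 hours. All 5 aN1aN2 libraries lay below all aJ1aJ2 libraries (2.22 to 10.2 CPM), which lay below all RW libraries (30.4 to 138 CPM). The log2 fold change of Alb was -6.82 (SE 0.79, adjusted p = 0.0117). The fibrinogen chains Fga and Fgg had 1 count each in aN1aN2 and 83 and 81 in aJ1aJ2. Their ratios per total count, 95.5 (exact 95% interval 16.7 to 3816) and 93.2 (16.3 to 3725), cover counting error only. Mup17, a major urinary protein with near-identical family members, had 2 counts against 102, a ratio of 58.7 (15.8 to 491). Hpx, hemopexin, had 54 against 297 counts and a log2 fold change of -2.61 (SE 0.43, adjusted p = 0.0268).

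These liver genes were also below their level in aJ1aJ2 at 15 hours in the 5-day groups, which share the block of aN1aN2. RW at 5 days had 2 counts of Alb, 0 of Fga, 1 of Fgg, 1 of Mup17 and 46 of Hpx. In aJ1aJ2 at 5 days the counts were 35 of Alb, 0 of Fga, 4 of Fgg, 2 of Mup17 and 57 of Hpx, and in aN1aN2 at 5 days 179, 17, 14, 7 and 70. All 5 genes were called lower in RW at 5 days than in RW at 15 hours. Against RW at 15 hours, within 1 block, 13 of 17 liver genes tested were called lower in aJ1aJ2, with a median of -3.37. Across the blocks, 16 of 17 were called lower in aN1aN2 against RW at 15 hours, with a median of -5.23. Of all genes, 0.573% and 1.68% were called in these comparisons. In the full list of 17 liver genes 5 were called between the antibody pairs, all lower, with a median of -2.07. At 5 days the count filter left 5 of the list to test, Hpx alone of the 5 called genes, and 0 were called. Summed over the list, liver messages took 0.0100% to 0.0194% of counts in aN1aN2 and 0.0108% to 0.0197% in aJ1aJ2. With library quality weights or without the libraries above 2% muscle 0 of the 5 calls remained. Mup17 was called in 3 and Hpx in 7 of the 15 fits that left out 1 library, with adjusted p up to 0.143 and 0.104, and Alb, Fga and Fgg in all 15.

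Mitochondrial messages formed a group of low counts and a group of high counts. Called were mt-Co2, cytochrome c oxidase subunit 2, higher in aN1aN2 by 2.87 on the log2 scale (SE 0.42, adjusted p = 0.0125), and the ATP synthase subunit mt-Atp6, higher by 3.05 (SE 0.40, adjusted p = 0.0118). mt-Co2 was at 18.0, 33.0, 47.4, 27.8 and 61.8 CPM in aN1aN2 and 3.98, 3.42, 8.88, 4.66 and 4.60 CPM in aJ1aJ2. By contrast mt-Co1, the neighbouring subunit, had 674860 counts in total in aN1aN2 and 377798 in aJ1aJ2 and a log2 fold change of 0.62 (adjusted p = 0.557). The call of mt-Co2 was lost without aJ1aJ2 replicate 1 (adjusted p = 0.0571) or 4 (0.0579).

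A 50-base stretch from mt-Co2 and from its nuclear copy Gm28661 is shown because a read of this length cannot be assigned to either. Both are from GENCODE M21, in lower case throughout since no base differs.
mt-Co2: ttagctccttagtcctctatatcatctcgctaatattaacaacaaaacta
Gm28661: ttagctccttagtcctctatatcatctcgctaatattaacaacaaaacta
Gm28661 matches mt-Co2 at 100% over 681 bases. In the counts it moved with it, from 119 in aJ1aJ2 to 1274 in aN1aN2 (log2 fold change 3.28, SE 0.45, adjusted p = 0.0118).

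The other called copies of mitochondrial messages were Gm10222 of mt-Nd4l, Gm10925 of mt-Atp6, Gm13340 and Gm29216 of mt-Co1, Gm28437 of mt-Co3 and Gm28439 of mt-Nd4. All 7 copies had log2 fold changes between 3.00 and 3.75. Among the 13 mitochondrial messages, mt-Atp6, mt-Co2, mt-Co3, mt-Nd3 and mt-Nd4l have a nuclear copy of at least 99.7% identity over nearly the whole message. These 5 had log2 fold changes from 2.50 to 3.34 and totals of 52 to 881 counts in aJ1aJ2. mt-Atp8, for which no nuclear copy was found and which overlaps mt-Atp6, was at 2.25 with 47 counts (adjusted p = 0.211). The other 7 had 157457 to 1050289 counts in aJ1aJ2 and log2 fold changes from 0.50 to 0.73, none of which passed (adjusted p from 0.512 to 0.661). One of them, mt-Nd4, has a copy of 100% identity, Gm28439, over 63.6% of the message. The same 6 messages were called higher in RW at 5 days than in RW at 15 hours, at 2.63 to 3.30.

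The remaining gene models were processed copies of nuclear genes. Gm6368 (closest to Hsp90ab1) and Gm18955 (closest to Hnrnpa2b1) were higher in aN1aN2 by 1.01 and 1.49, and Gm2962 (Uqcrb) and Gm45246 (Hnrnpl) were lower, at log2 fold changes of -1.89 and -1.02. Gm2614 was also lower, at -1.63. The parent genes Hsp90ab1, Hnrnpa2b1, Uqcrb and Hnrnpl were at 0.53, 0.13, -0.22 and -0.31 and were not called. Rpl7, a ribosomal protein gene with many copies, was at 5.58 ± 1.12 CPM in aN1aN2 (SD, n = 5) and 2.72 ± 0.334 in aJ1aJ2 (log2 fold change 1.03, SE 0.17, adjusted p = 0.0268). It was the only one of 65 ribosomal protein genes called. Because reads of such families can be split among copies, these values are uncertain. Rpl7 was called in 4 of 15 fits that left out 1 library. Its call was lost without the libraries above 2% muscle (adjusted p = 0.135), without the count filter (0.0588), with the replicate block (0.0837) and with aN1aN2 and aJ1aJ2 fitted alone (0.113).

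Chaperone genes were higher in aN1aN2 in part. Serpinh1 (ENSMUSG00000070436), the collagen chaperone Hsp47 of the endoplasmic reticulum, had 174, 243, 200.2, 190.3 and 224 CPM in aN1aN2 and 116, 102, 75.2, 125 and 102 CPM in aJ1aJ2. The groups did not overlap, and the log2 fold change was 0.99 (SE 0.13, adjusted p = 0.0118), called in all 15 fits that left out 1 library. Without the libraries above 2% muscle it was 0.75 (adjusted p = 0.112), and with aN1aN2 and aJ1aJ2 fitted alone 0.99 (adjusted p = 0.0577). Hspa8, the constitutive Hsp70 chaperone of the cytosol, was at 41.1 ± 6.60 CPM in aN1aN2 (SD, n = 5) and 24.0 ± 3.86 in aJ1aJ2. Its log2 fold change was 0.77 (SE 0.13, adjusted p = 0.0345), called in 5 of the 15 fits, with adjusted p up to 0.122. The call of Hspa8 was also lost without the libraries above 2% muscle (adjusted p = 0.159), with the replicate block (0.0568) and with aN1aN2 and aJ1aJ2 fitted alone (0.166). Its introns host small nucleolar RNAs. Both genes were also higher in RW at 5 days than in RW at 15 hours, by 0.51 and 0.95.

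Of 11 heat and cold shock genes, Hspa8 alone was called between the antibody pairs, with a median of 0.62; DESeq2 called 5 higher and 1 lower. Dnajb1 (0.62, adjusted p = 0.100), a co-chaperone of Hsp70, and Hsp90aa1 (0.82, adjusted p = 0.139) did not overlap between the groups, as 370 of the 18513 genes (2%) did not. Hsph1 was at 1.24 (adjusted p = 0.184). The cold-inducible Cirbp was at -0.64 (adjusted p = 0.184) and was called lower in aN1aN2 against RW (-0.94, adjusted p = 0.0189). That call of Cirbp was kept in 10 of 15 fits that left out 1 library and lost without the libraries above 2% muscle (-0.80, adjusted p = 0.0803). At 5 days 0 of the 11 were called and the median was -0.01. Of 22 chaperone and stress genes of the endoplasmic reticulum 0 were called, with a median of 0.08.

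In the list of 19 matrix and fibroblast genes Serpinh1 alone was called, and 18 of 19 had positive values, with a median of 0.77. P4ha1, which hydroxylates collagen, was at 0.65 (adjusted p = 0.114), and Lum and Fn1 at 0.95 (adjusted p = 0.167) and 1.72 (adjusted p = 0.215). The median fell to 0.23 without the libraries above 2% muscle. Against RW at 15 hours, 18 of the 19 matrix genes were negative in aJ1aJ2, within 1 block, with a median of -0.41. In aN1aN2 against RW 16 were positive and 3 negative, with a median of 0.29. Between RW at 5 days and RW at 15 hours all 19 were positive, with a median of 0.45. Between aN1aN2 and aJ1aJ2, thyroid function genes had a median of -0.53 and 0 of 19 were called. Foxe1, a thyroid transcription factor, was at -1.37 (adjusted p = 0.273), the iodide transporter Slc5a5 at -1.13 (adjusted p = 0.303) and Pax8 at -0.70 (adjusted p = 0.425). Their median was -0.24 without the libraries above 2% muscle, and -0.03 at 5 days. Tg was at -0.31 (SE 0.53, adjusted p = 0.820).

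At 5 days edgeR called 0 of 18434 genes (0%) between aN1aN2 and aJ1aJ2. Adjusted p started at 0.424; before adjustment, p was under 0.05 for 778. DESeq2 called 76 and voom with library quality weights 69, so the count depends on the tool. The limit of 2% muscle was applied at 15 hours only, not to the fits at 5 days or of the change between times. The test of whether the difference between the antibody pairs changed from 15 hours to 5 days called 7 of 19337 genes (0.0362%). They were Rgs5, Bcl6b, Cox4i2, Sema3g, Aplnr, Fga and the gene model Gm8141, and those other than Rgs5 and Fga were singled out after their values were seen. DESeq2 called 61, and the 2 antibody groups at 15 hours lie in different blocks.

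Bcl6b, a transcriptional repressor expressed in endothelium, was at 9.71, 9.40, 10.5, 12.6 and 9.90 CPM in aN1aN2 at 15 hours and 5.90, 6.08, 7.09, 6.72 and 7.06 CPM in aJ1aJ2. At 5 days it was at 3.77 to 9.39 CPM in aN1aN2 and 10.97 to 18.5 CPM in aJ1aJ2. The groups did not overlap at either time, and their order was opposite. The log2 fold change was 0.66 (SE 0.13, adjusted p = 0.0777) at 15 hours and -1.05 (SE 0.23, adjusted p = 0.592) at 5 days, and the change of -1.69 passed (SE 0.27, adjusted p = 0.00704). Bcl6b was picked because this change passed, so the opposite order in the same libraries follows in part from that choice. At 15 hours 370 of the 18513 genes tested (2%) did not overlap between the groups, and no such share was computed at 5 days.

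Sema3g, a secreted semaphorin of arterial endothelium, went the other way. It was at 14.1, 14.0, 16.6, 10.1 and 13.9 CPM in aN1aN2 at 15 hours and 18.9, 23.3, 19.3, 26.4 and 19.7 CPM in aJ1aJ2, and at 5 days at 19.3 to 27.2 CPM in aN1aN2 and 12.7 to 17.8 CPM in aJ1aJ2. Again neither time showed an overlap. Sema3g was picked by the same test as Bcl6b, so the same limit holds. The change of its difference was 1.36 (SE 0.18, adjusted p = 0.0012), from -0.65 (adjusted p = 0.114) at 15 hours to 0.69 (adjusted p = 0.478) at 5 days.

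Cox4i2, a cytochrome c oxidase subunit isoform found in pericytes, had the same order as Rgs5. It was at 1.08, 2.53, 1.05, 1.30 and 2.46 CPM in aN1aN2 at 15 hours and 0.664, 0.665, 0.709, 0.798 and 0.368 CPM in aJ1aJ2, without overlap. Its log2 fold change was 1.38 (SE 0.30, adjusted p = 0.114) at 15 hours and -1.27 (SE 0.33, adjusted p = 0.638) at 5 days, where the groups overlapped, and the change was -2.66 (SE 0.45, adjusted p = 0.0144). Against RW at 15 hours, within 1 block, Cox4i2 was lower in aJ1aJ2 (-1.56, SE 0.30, adjusted p = 0.0341), a call kept in 7 of 15 fits that left out 1 library and lost without the libraries above 2% muscle (-1.35, adjusted p = 0.112). Aplnr, the apelin receptor of endothelium, changed by -2.06 (SE 0.38, adjusted p = 0.0297), from 0.68 at 15 hours to -1.40 at 5 days, where aJ1aJ2 libraries spread from 18.3 to 75.2 CPM. Bcl6b, Sema3g, Cox4i2 and Rgs5 were called in all 30 fits that left out 1 library, and Aplnr in 16. With the 4 antibody groups fitted alone Sema3g (adjusted p = 0.0139) and Rgs5 (0.00752) were called, and Bcl6b (0.0729), Cox4i2 (0.132) and Aplnr (0.182) were not. With the replicate block Cox4i2 and Aplnr were not called (both 0.0711).

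**Figure D5:**
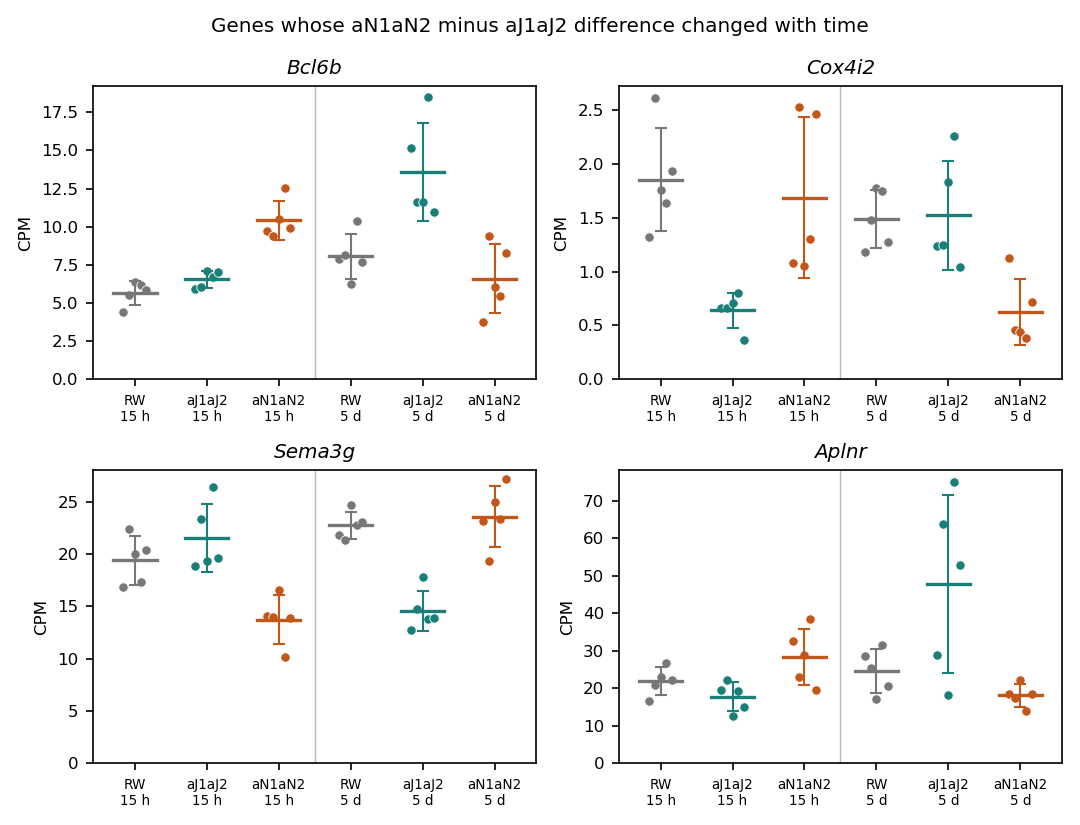
CPM of Bcl6b, Cox4i2, Sema3g and Aplnr in each library (points), with the mean (bar) and SD (whiskers) of each group of 5, at 15 hours on the left of each panel and at 5 days on the right. For Bcl6b and Sema3g the aN1aN2 and aJ1aJ2 groups do not overlap at either time and change their order between the times. The genes shown were picked because the change of their difference passed the test in these same libraries.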

How the data were processed

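RNA of whole thyroids was sequenced as single-end reads of 50 bases, per the labels' protocols. GSNAP and limma are named in the submitters' processing notes; no source used here gives the counting program, the genome build or the use of strand. Unnormalized whole-number read counts of each gene were deposited by the authors, beside FPKM values, also as the authors deposited them. Count divided by FPKM gives a factor per library, which is a fixed multiple of the size factor within each of 2 blocks of 30 and 20 libraries but varies by 8.70% over all 50. FPKM served only to find these blocks.

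Counts were tested with edgeR 4.0.16 in R 4.3.3 (TMM, filterByExpr at 10 counts, total 15, robust glmQLFit, glmQLFTest), with the 3 groups of a time fitted together and 30 libraries for the change between times and for RW. Calls use 2-sided p-values after Benjamini-Hochberg adjustment over all genes tested, at a threshold of 0.05. CPM values use TMM over the 30 libraries. Each SE comes from the F statistic. On simulated data of 18280 genes in the design of aN1aN2 against aJ1aJ2 at 15 hours, 68 of 99 genes changed 4-fold and 90 of 99 changed 8-fold were called, with 6 false calls. The simulation drew counts independently, without blocks or differing tissue content, and held no change smaller than 4-fold. It cannot show how well smaller changes are called or how many calls in the real libraries are false. No pair of replicates agreed within sampling noise (smallest chi-square per degree of freedom 23.6). No label says that replicates were separate mice beyond their numbers, so p-values measure the spread between samples. Intervals on counts cover counting error only.

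Named were every called gene with a symbol that is not a gene model, all Notch readouts, receptors and ligands, and up to 4 members of each other list with the smallest p, except a few names that are not reported here; the members and lists were chosen with earlier results of these data known. Alternatives were RLE scaling, DESeq2 1.42.0, no count filter, voom with quality weights (limma 3.58.1), the replicate block, fewer groups and each library left out; the muscle covariate and the muscle limit were chosen after seeing the data. Symbols were matched by Ensembl ID to GENCODE M21 for 52403 of 52636 genes.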

Additional observations from a re-analysis of the deposited data

Results flagged for a closer look

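Samples far from the other 4 of their group were looked for in the named genes and in 6 tissue lists; chance gives such a gap in about 1 of 20 groups. In aJ1aJ2, replicate 3 had 5.90% skeletal muscle counts (median 0.591%), 14.8% thyroid function counts (median 30.3%), 4.54% mitochondrial counts (median 1.75%) and 8.88 CPM of mt-Co2 (median 4.60). In aJ1aJ2, replicate 5 had 1.59 CPM of Nrarp (median 0.633) and 0.00485% airway and oesophagus counts (median 0.00289%). In aN1aN2, replicate 2 had 0.766% airway and oesophagus counts (median 0.0301%). The single counts of Fga and of Fgg in aN1aN2 were both in replicate 5, 0.0368 CPM each, with 0 in the other 4.

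The difference between the antibody pairs changed from 15 hours to 5 days, by edgeR's test of the change, for 7 genes. The changes on the log2 scale were -2.10 for Rgs5, -1.69 for Bcl6b, -2.66 for Cox4i2, -2.06 for Aplnr, 1.36 for Sema3g, -5.46 for Gm8141 and 10.50 for Fga. The value of Fga depends on the prior count, since 0 counts were found in aJ1aJ2 at 5 days, and Gm8141 had 3 to 61 counts in total per antibody group.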

How the results depend on the processing

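Between aN1aN2 and aJ1aJ2 at 15 hours, 24 genes were called. The count was 557 with DESeq2 (389 higher, 168 lower, all 24 among them), 57 with library quality weights, 143 with the muscle covariate, 11 without the libraries above 2% muscle and 11 with these groups fitted alone. It ranged from 9 without aJ1aJ2 replicate 1 to 44 without aJ1aJ2 replicate 3, with 10, 12 and 14 without aJ1aJ2 replicates 4 and 5 and aN1aN2 replicate 3. The 311 genes of aN1aN2 against RW became 935, 510 and 696 with DESeq2, quality weights and the muscle covariate, 140 without the libraries above 2% muscle, and 120 (without RW replicate 4) to 444 (without aJ1aJ2 replicate 3) on leaving out 1 library. The 106 of aJ1aJ2 against RW became 318 and 179 with DESeq2 and quality weights, 9 without the libraries above 2% muscle, 48 with these groups alone, and 35 (without RW replicate 2) to 127 (without aJ1aJ2 replicate 4). At 5 days the count of 0 became 76 with DESeq2, 69 with quality weights and 0 to 1 (without aN1aN2 replicate 4) on leaving out 1 library. The 7 genes of the change between times became 61 with DESeq2, 116 with quality weights, 3 with its 4 groups alone, and 4 to 30 (without RW at 5 days, replicate 3). The 1828 of RW between times became 6008 with quality weights, 1061 without the count filter, 305 with these groups alone, and 1031 (without replicate 1 at 15 hours) to 2293 (without replicate 3 at 5 days). The cause of these differences was not tested.

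Same-numbered samples correlated at 0.296, -0.304, 0.169, 0.112 and -0.14 in their deviations from the group means, so the numbers were not taken to pair the samples. With the replicate block the counts were 29 (16 of the 24 among them), 186 for aN1aN2 against RW, 36 for aJ1aJ2 against RW and 4 for the change between times.

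Log2 values that turned sign, none called in edgeR, were Notch1 at 0.021, Notch2 at 0.024, Jag1 at 0.14, Jag2 at -0.27, Dll3 at 0.23 and Cnn1 at -0.64 without the libraries above 2% muscle, and Jag1 at 0.022 and Jag2 at -0.028 with quality weights. On leaving out 1 library Nrarp ranged from -0.64 to 0.058, Dtx1 from -0.41 to 0.047, Notch1 from -0.34 to 0.044, Jag1 from -0.22 to 0.036 and Jag2 from -0.017 to 0.21. Over 68 gene values and their alternatives, 199 lost the call, 32 gained it, 14 turned sign and 1407 kept direction and call status. The 1407 include values called in neither fit and any without an adjusted p. They therefore do not measure how often a call was kept. Low counts limit Fga, Fgg and Mup17 to the intervals given.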
